A study of Mus musculus with 30 samples.

Results

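Trp53 (p53), its paralogs Trp63 (p63) and Trp73 (p73), and the paired p53 regulators Mdm2 and Mdm4 were followed across kidney and pancreas of mice given doxycycline to switch on reprogramming factors. These 5 genes were taken by name, whatever their values, from 18891 gene names present in both deposited tables. Each tissue had 3 genotypes with 5 mice in each, which gave 30 libraries in 6 groups. All mice were C57BL/6 and drank 0.2 mg/ml doxycycline for 7 days. The i4F allele is a doxycycline-inducible cassette of the reprogramming factors. In kidney the groups were i4F p53 KO, i4F Ink4a/Arf KO and i4F. In pancreas they were p53 KO, i4F Ink4a/Arf KO and i4F, and the label of the first one does not mention i4F. Neither the deleted part of Trp53 nor what drives the cassette is stated in the labels. The labels do not say whether a kidney and a pancreas came from the same mouse.

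Values are FPKM (fragments per kilobase of transcript and per M mapped reads), which are per length, so that levels can be set side by side between genes. More than 24 M reads were mapped per library. The tissues matched their labels: the summed nephron markers reached 7268 to 38140 FPKM in i4F p53 KO kidneys, 24410 to 63080 in i4F Ink4a/Arf KO kidneys and 20990 to 80870 in i4F kidneys. The summed pancreas acinar markers reached 5092 to 348500 FPKM in pancreas under the label p53 KO, 427600 to 475200 in i4F Ink4a/Arf KO pancreases and 294300 to 454000 in i4F pancreases. The nephron markers summed to at most 51.4 FPKM in any pancreas library. The acinar markers, however, summed to 2016 to 4408 FPKM over the kidney groups, below the lowest pancreas sum of 5092 under the label p53 KO. The kidney sums did not rest on all markers. In i4F Ink4a/Arf KO kidneys 9 of the 22 averaged under 1 FPKM, although the sums there were 2016 to 2598. Transcripts of all cells of a piece of tissue were measured together, so fewer cells of a type and less RNA per cell cannot be told apart.

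p53 is a transcription factor that halts the cell cycle or starts cell death after DNA damage or oncogene activity. Mdm2 is the ubiquitin ligase that sends p53 to degradation and is itself a p53 target gene, which closes a negative feedback loop. Mdm4 resembles Mdm2, binds and restrains p53 and works as a partner of Mdm2. p63 and p73 share the DNA-binding domain of p53 and are best known for roles in stratified epithelium and in multiciliated cells and neurons. The Arf protein of the Ink4a/Arf locus (Cdkn2a) binds Mdm2 and so spares p53, which places this locus upstream of the Mdm genes. Mouse p53 is known as a barrier to reprogramming.

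The relation between the 5 genes can be read from matching coding stretches (GRCm38). The DNA-binding domain stretch of the p53 family is shown because these reads have to tell 3 related genes apart, and the p53-binding domain stretch of the Mdm pair for the same reason. Capitals mark bases that differ from the first gene of each set, which is written in lower case throughout.
Trp53: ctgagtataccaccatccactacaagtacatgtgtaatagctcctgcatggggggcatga
Trp63: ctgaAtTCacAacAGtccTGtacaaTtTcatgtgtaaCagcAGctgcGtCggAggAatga
Trp73: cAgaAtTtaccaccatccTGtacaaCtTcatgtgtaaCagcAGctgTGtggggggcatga
Mdm2: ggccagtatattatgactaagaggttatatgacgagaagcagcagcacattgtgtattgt
Mdm4: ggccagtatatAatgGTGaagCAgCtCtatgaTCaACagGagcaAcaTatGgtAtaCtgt
The Trp53 stretch lies in exon 7 of 11 at chr11:69589148-69589207 on the plus strand. The Trp63 stretch, in exon 7 of 14 at chr16:25865254-25865313 on the plus strand, matched it at 43 of 60 bases (71.7%). The Trp73 stretch, in exon 7 of 14 at chr4:154064681-154064740 on the minus strand, matched it at 48 of 60 bases (80.0%). The Mdm2 stretch lies in exon 5 of 12 at chr10:117702261-117702320, and the Mdm4 stretch, in exon 4 of 11 at chr1:133011124-133011183, matched it at 42 of 60 bases (70.0%), both on the minus strand. Over whole transcripts the p53 paralogs shared no run of 50 bases with each other. Processed pseudogenes were closer: 8.26% of the 50-base runs of Trp53 also occur in Trp53-ps and 9.99% of those of Mdm4 in Mdm4-ps, so the values of Trp53 and Mdm4 may include a few reads of these copies.

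The members kept a fixed order of levels in i4F kidneys. Trp53 was highest with 16.4 ± 2.199 FPKM (SD, n = 5), then Mdm2 with 11.02 ± 0.873, Mdm4 with 4.71 ± 1.57, Trp63 with 0.227 ± 0.0924 and Trp73, which reached at most 0.0524. No range of one gene overlapped that of the next in this order. In i4F p53 KO kidneys Mdm2 came first with 9.51 ± 0.904 FPKM, then Trp53 with 7.04 ± 2.12 and Mdm4 with 5.91 ± 1.49, and the ranges of neighbours overlapped. In i4F pancreases the levels were lower and closer together, with 3.40 ± 2.14 FPKM of Trp53, 2.70 ± 1.24 of Mdm2 and 1.82 ± 0.919 of Mdm4, whose ranges overlapped. The 2 tables were made separately, so these levels are set side by side without a test.

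**Figure D1:**
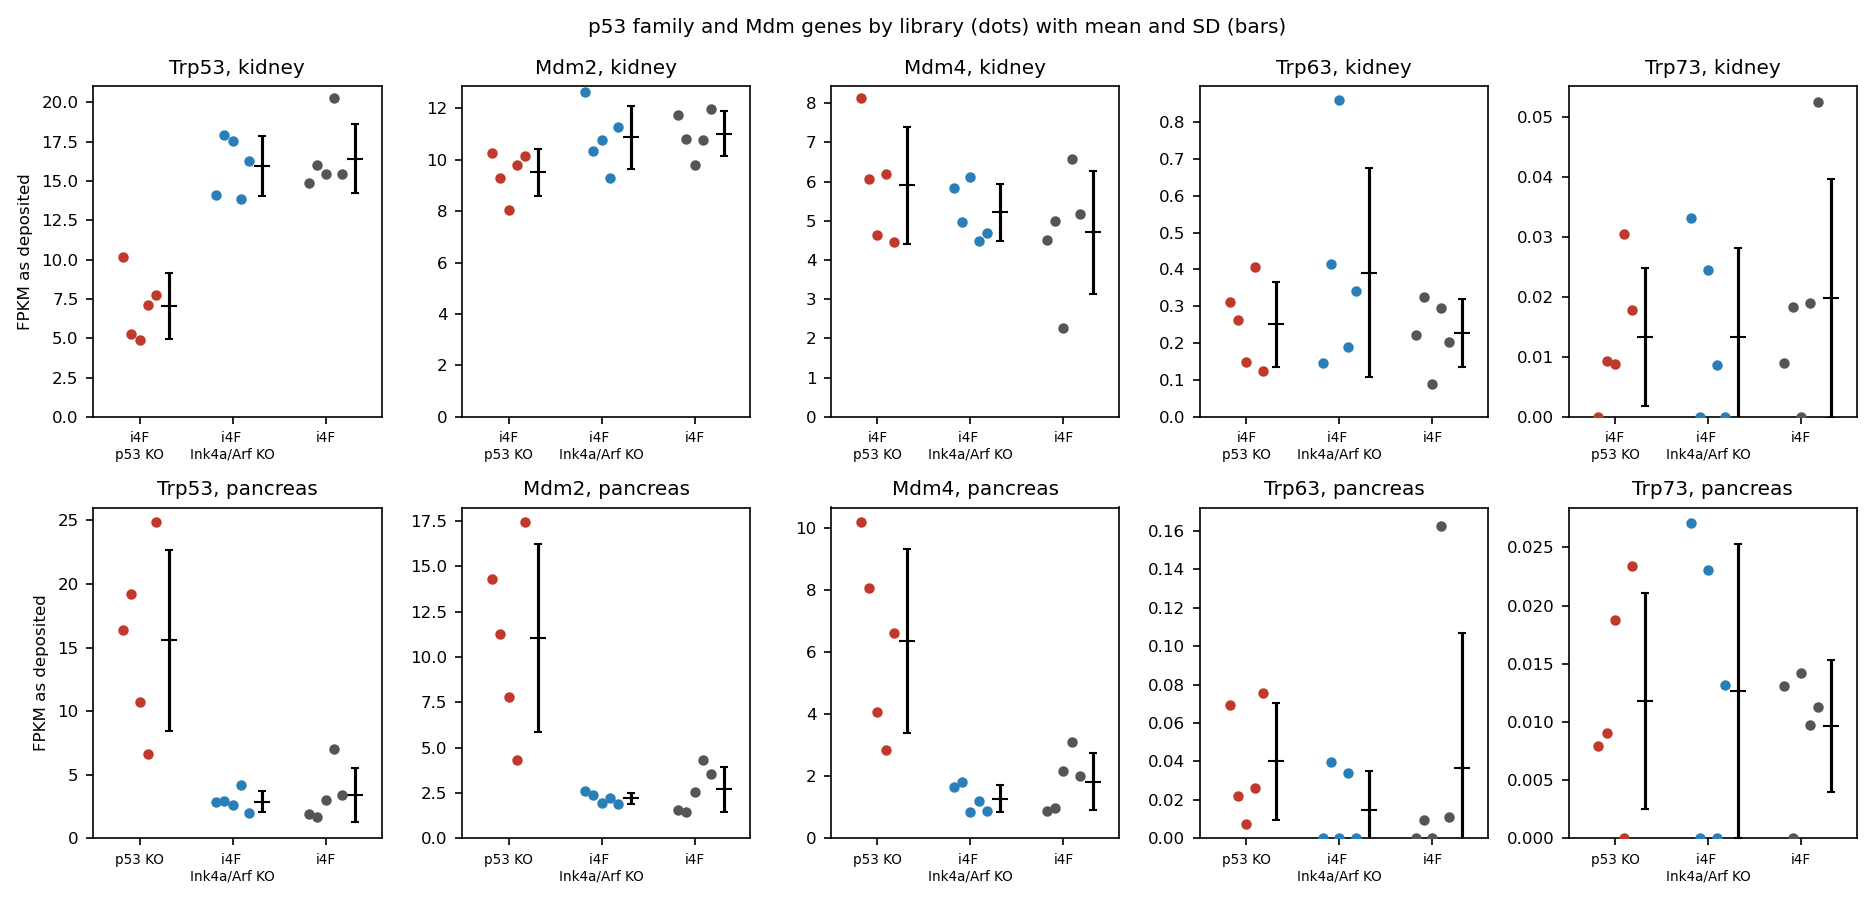
Level of each of the 5 genes in FPKM as deposited (linear vertical axes from 0, each with its own range) in every library, by tissue and genotype; dots are single mice, and the bars beside them are group means with SD (n = 5, clipped at 0). In kidney the 5 i4F p53 KO libraries lie below all others for Trp53, and in pancreas 4 of 5 libraries labelled p53 KO lie above all others for Trp53.

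In kidney, Trp53 was the one member of the 3 tested across the table that was called with the p53 KO genotype. Its level was 10.15, 5.27, 4.90, 7.11 and 7.77 FPKM in the i4F p53 KO kidneys, against 14.9, 15.99, 15.4, 20.3 and 15.5 FPKM in the i4F kidneys. All 5 i4F p53 KO libraries lay below all 5 i4F libraries, and none was near 0. Trp53 fell by 1.14 on the log2(FPKM + 1) scale (SE 0.15, 95% interval -1.48 to -0.81, fold 0.452, limma with Benjamini-Hochberg adjusted p = 0.00545). It ranked 6th by p among 12424 genes tested, of which 0.258% were called in either direction, 0.0885% higher and 0.169% lower in the i4F p53 KO kidneys. The other 2 members that passed the filter on low values, Mdm2 and Mdm4, were not called.

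The same comparison was also fitted on values scaled by each library's median ratio to the others. Trp53 then fell by 1.18 (adjusted p = 0.00146), where 0.5% of 12391 genes were called, 0.178% higher and 0.323% lower. The i4F Ink4a/Arf KO kidneys held 14.1, 17.9, 17.6, 13.9 and 16.3 FPKM of Trp53, so the 5 i4F p53 KO kidneys lay below these too. Against them Trp53 fell by 1.11 (adjusted p = 0.00959), with 0.266% of genes called, 0.105% higher and 0.161% lower. With scaled values the fall was 1.14 (adjusted p = 0.00163) and 0.541% of genes were called, 0.21% higher and 0.331% lower. The call against i4F Ink4a/Arf KO ended when only those 10 libraries were fitted (adjusted p = 0.0864).

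The fall did not extend to the genes beside Trp53. Trp53 spans chr11:69580359-69591873 on the plus strand (GRCm38), and Wrap53, which encodes a telomerase-associated protein, runs the other way from a start 103 bases away. Wrap53 averaged 5.97 FPKM in i4F p53 KO kidneys and 6.43 in i4F kidneys, a log2 difference of -0.09 (adjusted p = 0.730). Atp1b2, a sodium pump subunit gene at the far end, differed by -0.13 (adjusted p = 0.721). The Trp53 level relative to Wrap53 was 1.18 ± 0.346 in i4F p53 KO kidneys, with a range of 0.854 to 1.76, and 2.59 ± 0.603 in i4F kidneys, with a range of 2.13 to 3.65. A value for the whole gene cannot show which exons the remaining Trp53 reads came from.

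Nephron and duct marker sums and induction differed in range between i4F p53 KO and i4F kidneys without a call. The nephron sums given above overlapped between the groups, with a median of 14460 FPKM in i4F p53 KO kidneys and 45450 in i4F kidneys, and the summed duct markers ran from 1012 to 10530 FPKM in i4F p53 KO kidneys, against 512 to 2004 in i4F kidneys. By limma 0 of 12 nephron and 0 of 8 tested duct markers were called between these groups, as deposited or scaled. Pancreas acinar markers were called only between i4F p53 KO and i4F Ink4a/Arf KO kidneys. There 4 of 18 tested were higher in i4F p53 KO kidneys as deposited and 11 of 18 with scaled values. Of all genes 0.105% and 0.21% were called higher in these 2 fits. Pou5f1, one of the reprogramming factors, had a median of 4.88 FPKM in i4F p53 KO kidneys (0.650 to 15.7), 1.05 in i4F Ink4a/Arf KO kidneys (0 to 4.87) and 0.151 in i4F kidneys (0 to 5.40), a log2 difference of 1.74 between i4F p53 KO and i4F kidneys (limma adjusted p = 0.266). Clps, a pancreas acinar gene, exceeded 100 FPKM in i4F p53 KO replicates 2, 3 and 4 and in i4F replicate 5. Without those libraries Trp53 fell by 0.825 (adjusted p = 0.0351) against i4F and by 0.77 (adjusted p = 0.0248) against i4F Ink4a/Arf KO. The part of the marker sums and of Pou5f1 in the remaining fall was not tested.

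Mdm2, on the minus strand at chr10:117688875-117710758, did not pass the test in kidney. Its level was 10.27, 9.30, 8.04, 9.81 and 10.13 FPKM in i4F p53 KO kidneys, against 11.75, 10.8, 9.80, 10.75 and 12.0 FPKM in i4F kidneys. The groups overlapped, with 2 of 5 i4F p53 KO libraries below all i4F libraries, or 4 of 5 with scaled values. The log2 difference was -0.19 (SE 0.09, 95% interval -0.39 to -0.0033, adjusted p = 0.372) and -0.23 with scaled values (unadjusted p = 0.00686, limma adjusted p = 0.172). Without the libraries rich in Clps it was -0.07 (adjusted p = 0.796). The difference from i4F Ink4a/Arf KO kidneys, which held 10.87 ± 1.23 FPKM, was -0.17 (95% interval -0.37 to 0.02, adjusted p = 0.319), and with scaled values -0.20 (95% interval -0.357 to -0.050, unadjusted p = 0.0128, limma adjusted p = 0.153), where 4 of 5 i4F p53 KO libraries lay below all of them. Mdm2 thus missed the threshold after adjustment over all genes, with scaled intervals below 0.

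Mdm4, on the minus strand at chr1:132959484-133030561, had the largest standard error of the 3 tested members in kidney. It had 8.15, 6.08, 4.64, 6.21 and 4.46 FPKM in i4F p53 KO kidneys, against 4.51, 5.00, 2.27, 6.58 and 5.17 FPKM in i4F kidneys. The groups overlapped, with 1 i4F p53 KO library above all i4F libraries. The log2 difference was 0.30 (SE 0.20, 95% interval -0.12 to 0.72, adjusted p = 0.536). The difference from i4F Ink4a/Arf KO kidneys, with 5.22 ± 0.720 FPKM, was 0.13 (95% interval -0.29 to 0.55, adjusted p = 0.757). These intervals leave room for changes of Mdm4 in either direction.

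Ratios within a library do not depend on the scaling between libraries, and they set Mdm2 and Mdm4 against Trp53. The kidney ratio of Mdm2 to Trp53 was 1.01, 1.76, 1.64, 1.38 and 1.30 in i4F p53 KO libraries, against 0.791, 0.676, 0.635, 0.530 and 0.775 in i4F libraries. Mdm2 was thus the higher of the pair in every i4F p53 KO kidney and Trp53 in every i4F kidney. The ratio was 2.07 times as high (exact two-sided permutation p = 0.00794, the smallest that 5 against 5 allows, Benjamini-Hochberg adjusted over 18 ratio tests 0.0357). Relative to i4F Ink4a/Arf KO kidneys, with 0.690 ± 0.124, it was 2.04 times as high with the same exact permutation p. These 2 calls ended without i4F replicate 3 or 4, or when replicate 2, 3, 4 or 5 of i4F Ink4a/Arf KO was left out, where the adjusted p of the exact test was 0.0714. In those fits the groups did not overlap. The log2 ratio difference stayed between 0.9614 and 1.164 against i4F and between 0.9469 and 1.147 against i4F Ink4a/Arf KO in all fits that left out 1 library.

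The kidney ratio of Mdm4 to Trp53 was 0.803, 1.15, 0.948, 0.873 and 0.573 in i4F p53 KO libraries, against 0.304, 0.312, 0.147, 0.325 and 0.335 in i4F libraries. Again the groups did not overlap, and the ratio was 3.11 times as high (adjusted exact permutation p = 0.0357). Against i4F Ink4a/Arf KO kidneys, with 0.330 ± 0.0548, it was 2.598 times as high at the same adjusted p. The ratio of Mdm2 to Mdm4, which leaves Trp53 out, was 1.68 ± 0.375 in i4F p53 KO kidneys and 2.61 ± 1.02 in i4F kidneys (exact permutation p = 0.0556, adjusted 0.191). Both ratios to Trp53 contain the Trp53 level and are not separate measurements of its fall.

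**Figure D2:**
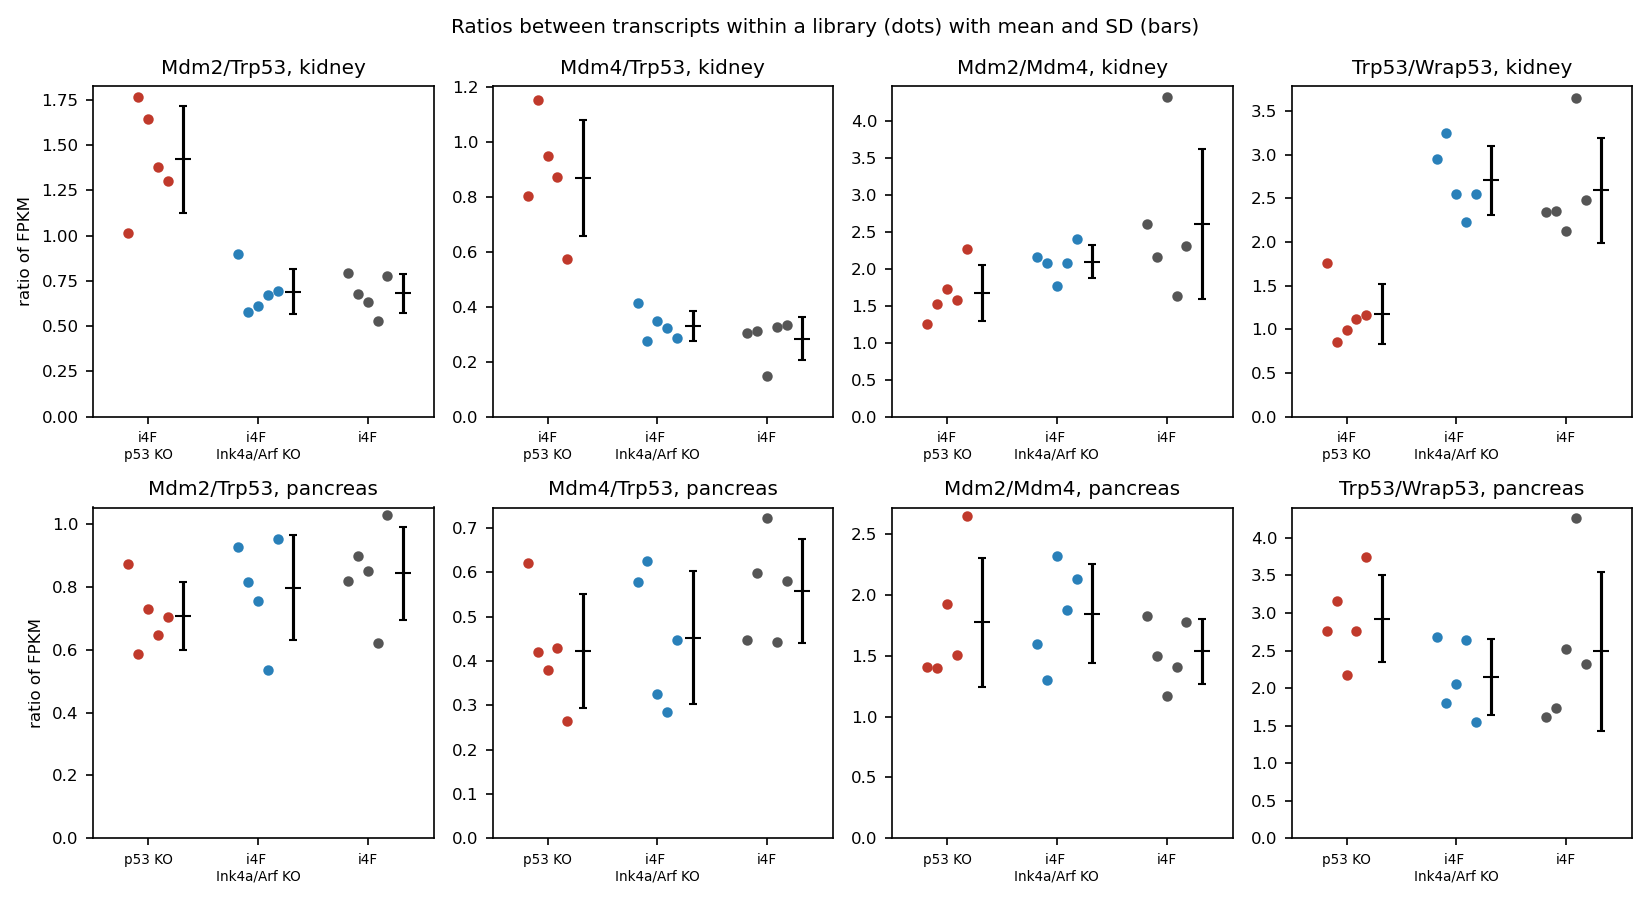
Ratios of FPKM within each library for Mdm2 to Trp53, Mdm4 to Trp53, Mdm2 to Mdm4 and Trp53 to Wrap53 (linear axes from 0), by tissue and genotype; dots are single mice and bars are group means with SD (n = 5). In kidney the 5 i4F p53 KO dots lie above all others for both ratios to Trp53, and in pancreas the groups overlap for all 4 ratios.

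In pancreas the libraries labelled p53 KO did not hold less Trp53 mRNA. They had 16.4, 19.2, 10.73, 6.65 and 24.8 FPKM, against 1.94, 1.64, 3.01, 6.99 and 3.44 FPKM in i4F pancreases. One of them lay below i4F replicate 4, and the other 4 lay above all i4F libraries. As deposited, Trp53 was 1.91 higher (SE 0.33, adjusted p = 3.69e-05), Mdm2 1.64 higher (SE 0.30, adjusted p = 7.08e-05) and Mdm4 1.34 higher (SE 0.29, adjusted p = 0.000337) on the log2(FPKM + 1) scale. All 3 tested members were called, as were 93.4% of 10778 genes, 91.2% higher and 2.25% lower. The median of all tested genes stood at 1.58, and the members' values lay at percentiles 66.5, 53.1 and 37.0 of all genes in the order just given.

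Relative to that shift the members lay close to the middle of all genes. After scaling, Trp53 had 4.17, 5.77, 5.10, 5.09 and 6.66 FPKM in the libraries labelled p53 KO, against 4.07, 3.55, 4.58, 6.96 and 4.33 FPKM in i4F pancreases. The groups overlapped, and the log2 difference was 0.17 (SE 0.15, 95% interval -0.15 to 0.50, adjusted p = 0.327). Scaled Mdm2 was 3.64, 3.38, 3.72, 3.30 and 4.68 FPKM in the libraries labelled p53 KO, against 3.33, 3.19, 3.89, 4.33 and 4.45 FPKM in i4F pancreases, a difference of -0.03 (95% interval -0.24 to 0.18, adjusted p = 0.807). Both groups of Mdm2 values covered nearly the same range. Scaled Mdm4 averaged 2.18 ± 0.337 FPKM in the libraries labelled p53 KO and 2.57 ± 0.627 in i4F pancreases, a difference of -0.16 (95% interval -0.46 to 0.15, adjusted p = 0.341). So 0 of 3 members were called with scaled values, where 66.7% of 10344 genes were, 33.5% higher and 33.2% lower; at an unadjusted p under 0.05 the count of members was also 0.

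Set against i4F Ink4a/Arf KO pancreases, the libraries labelled p53 KO gave the same picture. As deposited, Trp53, Mdm2 and Mdm4 were 1.99, 1.78 and 1.61 higher on the log2 scale (limma adjusted p = 2.15e-05, 2.81e-05 and 5.39e-05). The median of all genes was 1.66, and 93.7% were called, 91.8% higher and 1.96% lower. With scaled values the 3 differences were 0.14 (95% interval -0.19 to 0.46), 0.01 (-0.20 to 0.21) and 0.05 (-0.25 to 0.35), and none was called. Among all genes 68.1% were, 33.1% higher and 35.1% lower.

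**Figure D3:**
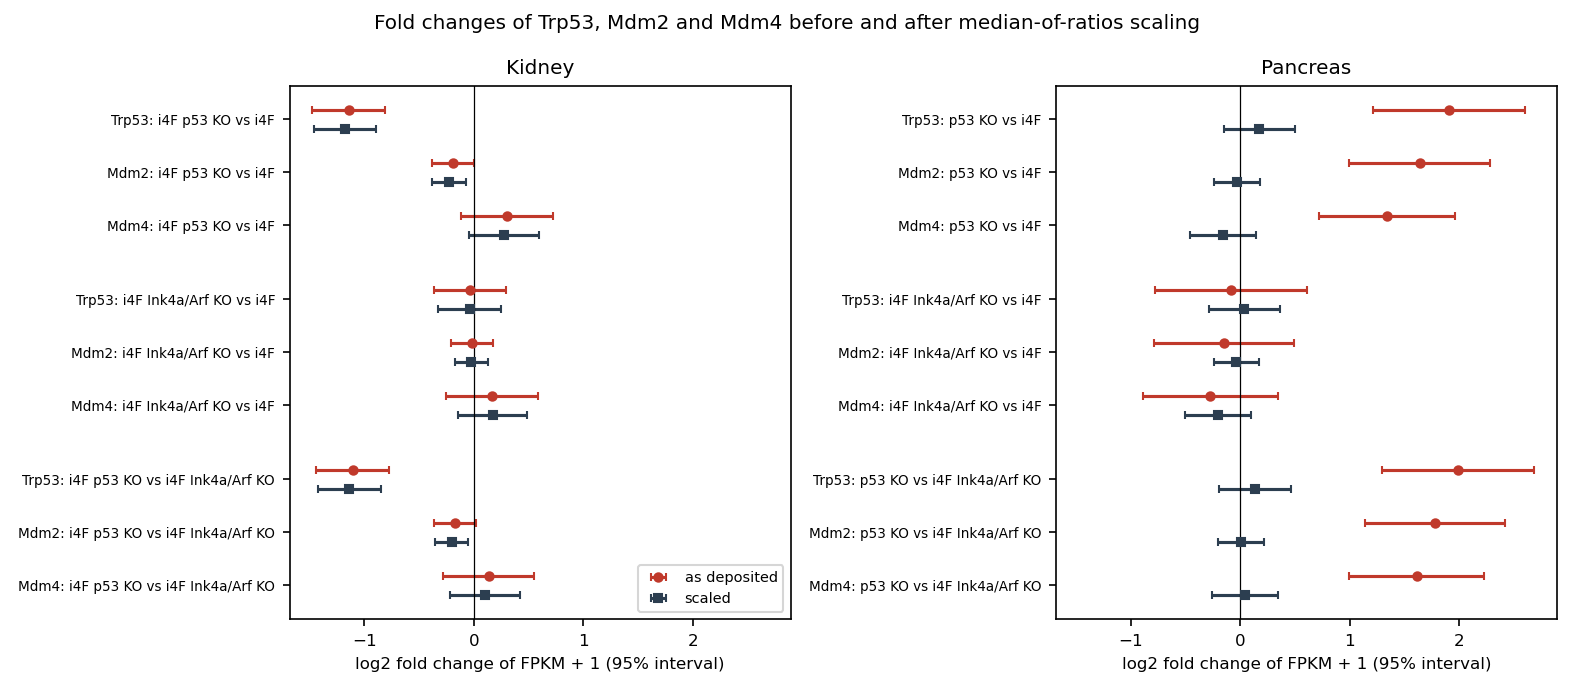
Log2 differences of Trp53, Mdm2 and Mdm4 on the log2(FPKM + 1) scale with 95% intervals from limma (horizontal axes) for the 3 contrasts of each tissue; circles are FPKM as deposited, squares are scaled FPKM, and the vertical line marks 0. In kidney the intervals of Trp53 lie below 0 in both contrasts with i4F p53 KO, and in pancreas all 3 genes lie above 0 as deposited and include 0 when scaled in the contrasts with the libraries labelled p53 KO.

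The ratios gave no call in pancreas. Mdm2 to Trp53 was 0.707 ± 0.107 in the libraries labelled p53 KO and 0.843 ± 0.147 in i4F pancreases (exact permutation p = 0.151, adjusted 0.339). Mdm4 to Trp53 was 0.423 ± 0.128 in the libraries labelled p53 KO and 0.559 ± 0.117 in i4F pancreases (adjusted exact permutation p = 0.265). Relative to Wrap53, Trp53 was 2.92 ± 0.576 in the libraries labelled p53 KO and 2.49 ± 1.06 in i4F pancreases, with overlapping ranges. By this measure too Trp53 was not lower in the pancreas libraries labelled p53 KO, while it was in the i4F p53 KO kidneys.

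The difference between tissues was tested directly, as the p53 KO against i4F difference in pancreas minus that in kidney over all 30 libraries. For Trp53 it was 3.05 as deposited (SE 0.38, limma adjusted p = 1.50e-07), where 91.9% of genes were called, and 1.35 with scaled values (SE 0.21, adjusted p = 1.34e-05), where 47.9% were called. For Mdm2 it was 1.83 as deposited (SE 0.32) and 0.20 scaled (SE 0.12, adjusted p = 0.166). For Mdm4 it was 1.04 as deposited (SE 0.36) and -0.43 scaled (SE 0.21, adjusted p = 0.0896). Trp53 was thus the one member whose p53 KO difference departed between tissues under both scalings. The tissue test does not separate tissue from the missing i4F in the pancreas label. Pou5f1, one of the reprogramming factors, was higher in all 5 pancreas libraries labelled p53 KO than in any i4F pancreas as deposited. Its log2 difference was 5.01 as deposited and 3.49 with scaled values. Whether these libraries carried the cassette was not tested.

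The pancreas libraries labelled p53 KO also stood apart in marker sums as deposited, where the median of all genes was 1.58 higher than in i4F pancreases on the log2 scale. The acinar sum was as low as 5092 FPKM there. The 9 fibroblast and endothelial markers summed to 465 to 6926 FPKM, against 30.1 to 120 in i4F pancreases, and the 8 proliferation markers to 49.1 to 152, against 0.862 to 4.96. With scaled values 5 of the 9 fibroblast and endothelial markers were called higher against i4F by limma and 2 lower, beside 33.5% and 33.2% of all genes. All 8 proliferation markers averaged under 1 FPKM in both other pancreas groups, so they are described by level alone. Pou5f1 had 24.6 to 98.2 FPKM in the libraries labelled p53 KO, 0.0456 to 1.91 in i4F Ink4a/Arf KO pancreases and at most 1.14 in i4F pancreases. Cdkn2a, the gene behind Ink4a and Arf, had 10.69, 5.33, 2.07, 0.496 and 14.3 FPKM in the libraries labelled p53 KO, at most 0.112 in i4F Ink4a/Arf KO pancreases and at most 0.318 in i4F pancreases. The part of these differences in the members' values was not tested.

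Trp63, at chr16:25683763-25892102 on the plus strand, was low throughout. In kidney it had 0.310, 0.263, 0.149, 0.406 and 0.125 FPKM in i4F p53 KO mice, 0.147, 0.416, 0.859, 0.191 and 0.342 in i4F Ink4a/Arf KO mice and 0.223, 0.325, 0.0882, 0.295 and 0.202 in i4F mice. All 3 groups overlapped. At 24 M mapped reads a single read would count as 0.00777 FPKM on the longest coding transcript, so these levels correspond to about 11.3 to 111 reads. In pancreas Trp63 stayed at or below 0.0755 FPKM in the libraries labelled p53 KO and was above 0 in all 5 of them, whereas 3 of 5 i4F Ink4a/Arf KO and 2 of 5 i4F pancreases were listed at 0. The highest pancreas value was 0.162 FPKM in i4F replicate 4.

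The low Trp63 level stood beside high sums of other genes of its usual cell type. The 12 basal and squamous epithelial markers summed to 330 to 1511 FPKM in libraries labelled p53 KO, 4.35 to 20.4 in i4F Ink4a/Arf KO pancreases and 4.05 to 12.2 in i4F pancreases, without overlap. These sums are as deposited, where 91.2% of all genes were called higher against i4F and 91.8% against i4F Ink4a/Arf KO. In pancreas 6 of the 12 markers passed the filter on low values. Of these markers 4 of 12 averaged under 1 FPKM in the libraries labelled p53 KO, against 10 of 12 in each of the other pancreas groups. Trp63 encodes the transcription factor that marks basal cells of stratified epithelia, and its part in the higher sum was not tested.

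Trp73, at chr4:154056253-154140208 on the minus strand, was close to the limit of detection in every library. Its kidney values were at most 0.0305 FPKM in i4F p53 KO mice, 0.0331 in i4F Ink4a/Arf KO mice and 0.0524 in i4F mice, and it was listed at 0 in 1, 2 and 1 libraries of these groups. In pancreas it was at most 0.0234, 0.0271 and 0.0142 FPKM in the libraries labelled p53 KO, i4F Ink4a/Arf KO pancreases and i4F pancreases, again with 1, 2 and 1 listed at 0. No library reached the equivalent of 7 reads. The 6 multiciliated cell markers that were found summed to at most 3.71 FPKM in every group. Over Trp63 and Trp73 the 12 exact two-sided permutation tests gave raw p-values of 0.198 to 0.976 and an adjusted p of 0.976 throughout. The exact p of 5 against 5 cannot fall below 0.00794. After adjustment over 12 tests a single difference could therefore not have been called even without any overlap. No conclusion is drawn from the lack of calls.

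Loss of Ink4a/Arf, which removes Arf as an inhibitor of Mdm2, came without a called change in the mRNA of any member. Cdkn2a itself was at most 0.0663 FPKM in i4F Ink4a/Arf KO kidneys and 0.0782 in i4F kidneys, too low in both to check the label. In kidney Trp53 averaged 15.95 ± 1.90 FPKM in i4F Ink4a/Arf KO mice and 16.4 ± 2.199 in i4F mice, a log2 difference of -0.04 (95% interval -0.37 to 0.29). For Mdm2 it was -0.02 (95% interval -0.21 to 0.17) and for Mdm4 0.17 (-0.25 to 0.59). In pancreas the i4F Ink4a/Arf KO minus i4F differences were -0.09 (-0.78 to 0.61), -0.14 (-0.78 to 0.50) and -0.27 (-0.89 to 0.35) for Trp53, Mdm2 and Mdm4. These pancreas intervals, as deposited, are wider than those of kidney. With scaled values the pancreas intervals were narrower, at -0.29 to 0.36 for Trp53, -0.24 to 0.17 for Mdm2 and -0.50 to 0.10 for Mdm4. By limma 0% of genes were called in these contrasts as deposited or scaled, with 398 kidney genes and 36 pancreas genes at an unadjusted p under 0.05 as deposited and 393 and 504 with scaled values, and none of the 3 members was among the adjusted calls.

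The wider pathway was read through 38 genes that act on p53 (kinases, ribosomal proteins, ubiquitin ligases and cofactors) and 37 p53 target genes besides Mdm2. In kidney none of the 35 regulators tested was called in i4F p53 KO against i4F, with a median log2 difference of 0.07 beside 0.03 over all genes. Among 34 targets tested none was higher and 3 were lower, with a median of -0.03, beside 0.0885% and 0.169% of all genes. Ccng1 (cyclin G1) averaged 21.8 ± 2.997 FPKM in i4F p53 KO kidneys and 49.3 ± 9.88 in i4F kidneys (log2 difference -1.13, adjusted p = 0.00109). Mgmt, a DNA repair methyltransferase, averaged 2.33 ± 0.428 FPKM in i4F p53 KO kidneys and 7.06 ± 2.17 in i4F kidneys (log2 difference -1.25, adjusted p = 0.00517). The third was the kinase gene Plk2, at -0.65 (adjusted p = 0.0226).

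Plk2 was the least stable of the 3. Its call against i4F ended when only those 2 groups were fitted (adjusted p = 0.118) and without any one of i4F p53 KO replicates 3 and 4 and i4F replicates 2, 3 and 4 (limma adjusted p up to 0.0786). Cdkn1a, the p21 gene and the best known p53 target in cell cycle arrest, differed by -0.02 (adjusted p = 0.992), or by 1.03 without the libraries rich in Clps (limma adjusted p = 0.376). Mdm2, itself a target, thus kept company with the 31 tested targets that were not called.

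Against i4F Ink4a/Arf KO kidneys, 5 of 34 targets tested were lower in i4F p53 KO kidneys and none higher, beside 0.161% and 0.105% of all genes. These were Ccng1 (-1.53, adjusted p = 3.24e-05), Mgmt (-1.29, adjusted p = 0.00452), Trp53inp1 (-0.78), Zmat3 (-0.62) and Plk2 (-0.59). The last 3 lost their calls in many fits that left out 1 library, in which the count of lower targets ran from 2 to 8. Among the regulators Daxx, a chromatin cofactor that binds Mdm2, was 0.43 higher (adjusted p = 0.0406), a call that ended in 13 of 15 fits that left out 1 library (limma adjusted p up to 0.125). The 2 contrasts share the i4F p53 KO libraries.

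In pancreas the libraries labelled p53 KO showed 26 of 32 targets higher and none lower as deposited, with a list median of 1.29 beside 1.58 for all genes, and 33 of 34 regulators higher, with a median of 1.62. Of all genes 91.2% were called higher there. Of the lists, 10 of the 32 targets and 10 of the 34 regulators passed the filter only through the libraries labelled p53 KO, and nothing is read from these counts. With scaled values 7 of 31 targets were higher and 12 lower, with a median of -0.11, beside 33.5% and 33.2% of all genes. Of the 7 higher, 6 passed the filter only through the libraries labelled p53 KO, as fewer than 5 of the other 10 libraries reached 1 FPKM, so a difference was built into their test. These were Epha2, a receptor tyrosine kinase, 9630033F20Rik (Tigar), the kinase gene Plk3, Apaf1, Tnfrsf10b and Gadd45a, and they are described by level alone. Scaled Epha2 averaged 12.05 ± 4.292 FPKM in the libraries labelled p53 KO and 0.532 ± 0.190 in i4F pancreases, and scaled Plk3 averaged 2.82 ± 0.674 FPKM in the libraries labelled p53 KO and 0.528 ± 0.233 in i4F pancreases. The seventh, Perp, a membrane protein gene, was 0.72 higher. Of the 12 lower, Ercc5 and Bbc3 reached 1 scaled FPKM in 0 and 1 of the 5 libraries labelled p53 KO and in 8 of the other 10 libraries each. They passed the filter through those other libraries, so nothing is read from their calls. Those lower included Dcxr (-2.02), Ephx1 (-1.93), Mgmt (-1.55), Plk2 (-1.32) and Ccng1 (-1.20, adjusted p = 6.06e-06), which averaged 4.71 ± 0.769 scaled FPKM in the libraries labelled p53 KO, 14.96 ± 2.07 in i4F Ink4a/Arf KO pancreases and 12.2 ± 2.80 in i4F pancreases. The count of 7 higher targets was 2 or 3 without any one of the 5 libraries labelled p53 KO, since Epha2, Plk3, Apaf1 and Tnfrsf10b then no longer reached the filter. Ccng1, Mgmt and Plk2 were thus called lower in kidney as deposited and in pancreas with scaled values. As deposited none of them was called lower in pancreas, and Ccng1 averaged 13.4 FPKM in the libraries labelled p53 KO and 8.41 in i4F pancreases, while Plk2 averaged 18.2 FPKM in the libraries labelled p53 KO and 11.1 in i4F pancreases.

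Of the 31 regulators tested with scaled values, 12 were higher and 7 lower in the libraries labelled p53 KO than in i4F pancreases, with a median of 0.18, beside 33.5% and 33.2% of all genes. Nothing particular to the list is read from these counts. Rassf1, a tumour suppressor gene, was 1.47 higher and Ppp1r13l, which encodes the p53 inhibitor iASPP, was 1.20 higher. Chek2, which encodes a kinase that phosphorylates p53, was called higher but passed the filter only through the libraries labelled p53 KO, with 1.45 ± 0.189 scaled FPKM there and 0.447 ± 0.178 in i4F pancreases. Rchy1, which encodes the p53 ubiquitin ligase Pirh2, was 1.61 lower, and Rpl5, a ribosomal protein gene whose product binds Mdm2, was 1.18 lower. Both changed sign with the scaling. As deposited Rchy1 was 0.27 higher without a call and Rpl5 was 0.85 higher with a call, where the median of all genes was 1.58 higher.

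**Figure D4:**
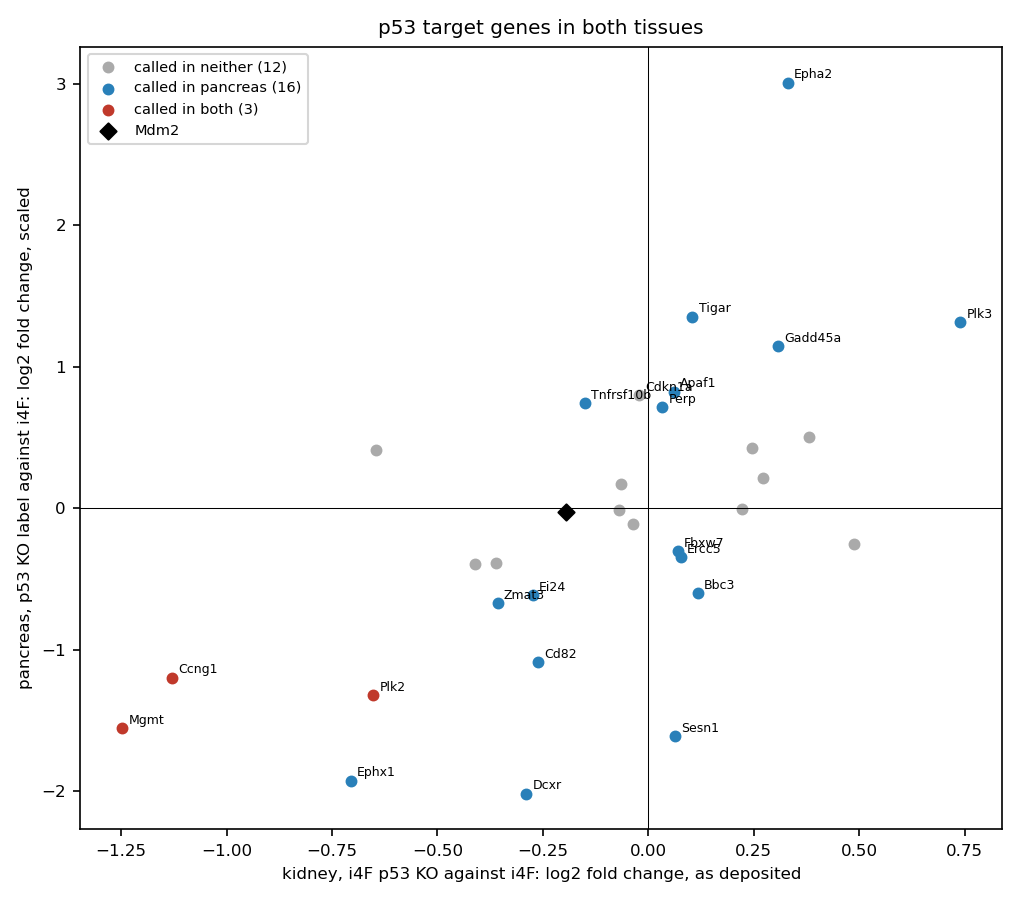
Log2 differences of 31 p53 target genes on the log2(FPKM + 1) scale, in kidney (i4F p53 KO minus i4F, as deposited, horizontal axis) and in pancreas (libraries labelled p53 KO minus i4F, scaled, vertical axis); colour marks genes called by limma and the diamond is Mdm2. Ccng1, Mgmt and Plk2 are called lower in both tissues on these scales, 16 genes are called in pancreas alone and 12 in neither.

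The start regions of the genes whose values bear on p53 were searched for its binding motif. RefSeq windows of 250 bases before to 50 after each start (GRCm38.p6) were searched on both strands for the p53 half-site of 10 letters and for the p53 full site, a pair of half-sites with at most 2 mismatches and a spacer of 0 to 13 bases. No mismatch was allowed at the C and G core letters of a full site, and the windows of 1 chromosome were left out. Of 32851 windows, 8.36% held a half-site and 4.09% a full site. The stretches below are shown because they hold a match at a member or at a target that was or was not called, with the matching letters in capitals.
Trp53: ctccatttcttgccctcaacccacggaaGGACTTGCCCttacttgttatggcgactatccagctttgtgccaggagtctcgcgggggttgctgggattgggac
Mdm2: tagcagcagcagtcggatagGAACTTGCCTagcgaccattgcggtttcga
Ccng1: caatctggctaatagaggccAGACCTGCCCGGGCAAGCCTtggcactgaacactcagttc
Cdkn1a: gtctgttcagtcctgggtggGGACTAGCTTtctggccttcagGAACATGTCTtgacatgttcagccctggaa
The Trp53 stretch is the whole 103 bases between Wrap53 and Trp53 (chr11:69580256-69580358, plus strand), and its half-site starts 75 bases before the Trp53 start. The Mdm2 half-site starts 186 bases before the start (chr10:117710915-117710964, minus strand). Ccng1 holds a full site with 1 mismatch and no spacer, 195 bases before the start (chr11:40755442-40755501, minus strand). Cdkn1a holds one with 0 mismatches and a spacer of 12 bases, 73 bases before 1 of its 2 starts (chr17:29090886-29090957, plus strand). The Ccng1 window and this Cdkn1a window each held 2 full sites, and capitals mark the one with the fewest mismatches and then the shortest spacer. The other Cdkn1a site, not in capitals throughout, pairs GAACATGTCT with the 10 letters right after it. One of 2 Trp73 windows also held a full site, with 2 mismatches. Mgmt and Plk2, which like Ccng1 were called lower in kidney, held neither a half-site nor a full site in their windows. Bax, Gadd45a and Sesn1, not shown here, each held a full site with 2 mismatches and were not called in kidney. In all 5 of 30 target genes with a window held a full site. Counted by window, as the 4.09% above is, it was 5 of 44. A match is a description of letters and not a measured site.

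The genes whose levels moved most like each member within groups were listed for each tissue. Scaled values were used in both tissues, over 15 libraries each, after centring each group. Kidney Trp53 was closest to Vars (Pearson r = 0.912), Fbxw9 (0.905) and Gm13375 (0.895), and pancreas Trp53 to Eml1 (0.899), Aoc3 (0.891) and Lat2 (0.885). Mdm2 was closest to Utp20 (0.889), 1110008J03Rik (0.853) and Gga2 (0.847) in kidney, and to Slc35b4 (0.889), Pros1 (0.888) and Cbfb (0.887) in pancreas. Mdm4 was closest to Otud4 (0.954), Rictor (0.945) and Gabpb2 (0.943) in kidney, and to Cpsf7 (0.930), Srrm2 (0.900) and Mll1 (0.9) in pancreas. No gene was named for the same member in both tissues. Between members r was -0.36 in kidney and 0.28 in pancreas for Mdm2 and Mdm4, -0.015 and 0.43 in these tissues for Mdm2 and Trp53, and 0.056 and 0.13 for Mdm4 and Trp53. These values are highest among all tested genes, which share library and depth, and they are given as a description.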

How the data were processed

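Stranded libraries of poly(A) RNA from kidney and pancreas were sequenced, per the labels' protocols. The authors deposited FPKM per gene, in 1 table for each tissue. The submitters' processing notes list, with no roles, the build mm10 and Cufflinks 2.2.1, TopHat2 2.0.10, Bowtie 1.0.0, SAMtools 0.1.19 and FastQC. Whether FPKM were scaled further and whether counting used strand is not given in the sources used here. No read counts per gene were used, so depth behind a gene is unknown, and read equivalents were computed from the stated 24 M mapped reads alone.

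Groups follow the labelled tissue and genotype. Values were analysed as log2(FPKM + 1), a pseudocount of 1 that understates changes of low genes, with limma 3.58.1 in R 4.3.3 (empirical Bayes with a trend), fitting the 15 libraries of each tissue without covariates. Genes that reached 1 FPKM in 5 or more libraries were tested across the whole table, and a gene was called at a two-sided Benjamini-Hochberg adjusted p under 0.05. Trp63 and Trp73 did not pass this filter in either tissue and were tested by exact permutation, as were ratios, with SciPy 1.17.1 in Python 3.11.15. Scaled values were divided by a size factor, the library's median ratio to gene-wise geometric means within its tissue. The tissue difference was an interaction over 30 libraries, taken as independent. The fit was tested on simulated data. Alternatives were another pseudocount, other filters, quantile normalization, a fit of the compared groups alone, a replicate block, leaving out each library and leaving out kidney libraries above 100 FPKM of Clps.

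The members, gene lists, markers and settings were chosen with earlier results of these data known. Besides the members, the genes named were the neighbours of Trp53, checks of genotype and induction (Cdkn2a, Cdkn1a, Pou5f1), up to 5 called genes with the smallest p per list and contrast, and the 3 genes most like each tested member. Mgmt, Plk2, Ccng1, Perp, Apaf1, Tnfrsf10b, Gadd45a, Ercc5 and Bbc3 in pancreas and Clps were named beyond the smallest p values after their values were seen. Positions come from GENCODE M21 (GRCm38, the same assembly as mm10), start windows from RefSeq (GRCm38.p6).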

Additional observations from a re-analysis of the deposited data

Results flagged for a closer look

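Among the 5 libraries of a group, 3 values stood apart by the gap to their nearest neighbour as a share of the group's range, a criterion that chance meets in about 1 in 20 groups. It was applied to 5 genes and 3 ratios in each of 6 groups, so a few values can meet it by chance. Trp53 in i4F kidney replicate 4 was 20.27 FPKM, above the other 4 libraries. The ratio of Mdm4 to Trp53 in i4F kidney replicate 3 was 0.1469, below the other 4. Trp63 in i4F pancreas replicate 4 was 0.1624 FPKM, above the other 4, of which 2 were listed at 0.

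The p53 KO against i4F difference was not the same in pancreas and kidney by the interaction test in limma. The pancreas minus kidney value was 3.0502 for Trp53, 1.8334 for Mdm2 and 1.0394 for Mdm4 as deposited, and 1.35 for Trp53 with scaled values. As deposited, 91.9% of all genes passed this test, and with scaled values 47.9% did. The tissue and the label without i4F cannot be told apart in these values. Pou5f1 was nevertheless higher in all 5 pancreas libraries labelled p53 KO than in any i4F pancreas as deposited, and whether they carried the cassette was not tested.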

How the results depend on the processing

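The fall of Trp53 in i4F p53 KO against i4F kidneys kept its call in every alternative run, with a log2 difference of -1.273 to -1.043 when 1 library was left out. Against i4F Ink4a/Arf KO it was no longer called when only the 2 groups were fitted (-1.108, 0 members called). The calls of Trp53, Mdm2 and Mdm4 in the pancreas libraries labelled p53 KO ended with scaling. Against i4F they were 0.1732, -0.02872 and -0.156 with scaling and 0.1025, -0.1249 and -0.2803 with quantile normalization. Against i4F Ink4a/Arf KO they were 0.1358, 0.005909 and 0.04664 with scaling and 0.1064, -0.07022 and -0.08799 with quantile normalization. Members called numbered 0 in each of these. With a filter of 5 FPKM 1 was called, as Mdm2 and Mdm4 did not reach that filter. The interaction with scaled values was 0.1973 for Mdm2 and -0.4306 for Mdm4. The causes were not tested. Depth limits Trp63 and Trp73, whose values rest on few reads.

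Replicate numbers were not taken to pair libraries. In i4F p53 KO against i4F kidneys 3 of 5 same-numbered pairs had a correlation of deviations over 0.1, and in the other comparisons at most 2. Pairs with different numbers were not compared, so these values do not settle whether the numbers pair libraries. With a replicate block Trp53 kept its kidney calls (limma adjusted p = 0.0374 against i4F and 0.0467 against i4F Ink4a/Arf KO). With the block and scaling, the pancreas values of Trp53, Mdm2 and Mdm4 were the scaled ones above, 0 members called.

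Counts of p53 targets moved with the processing. Those higher in the libraries labelled p53 KO than in i4F pancreases, 26 as deposited, numbered 10 with a filter of 5 FPKM, which tests fewer genes, 7 with scaling, 8 with quantile normalization and 8 with block and scaling, and against i4F Ink4a/Arf KO 11, 7, 7 and 7. Those lower, 0 as deposited, numbered 12 with scaling, 1 without a filter, 14 with quantile normalization and 11 with block and scaling, and against i4F Ink4a/Arf KO 15, 1, 16 and 15. In kidney, targets lower in i4F p53 KO than in i4F Ink4a/Arf KO, 5 as deposited, numbered 3 with a filter of 5 FPKM, 2 without a filter, 3 with the 2 groups alone, 8 with quantile normalization, 2 with the block and 3 with block and scaling. Without the libraries rich in Clps 1 target was higher there.

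Some values changed sign. In i4F Ink4a/Arf KO against i4F, Mdm2 in kidney was 0.00766 without the libraries rich in Clps and Trp53 in pancreas 0.03738 with scaling. The pancreas ratio of Mdm2 to Mdm4, labelled p53 KO against i4F Ink4a/Arf KO, was 0.1712 (log2) with 1 added to FPKM. Without the libraries rich in Clps, Cdkn1a in i4F p53 KO kidneys was 1.026 against i4F and 0.4012 against i4F Ink4a/Arf KO, and in pancreas it was 0.06692 with quantile normalization against i4F Ink4a/Arf KO. With scaling, Trp63 in the libraries labelled p53 KO was -0.01311 against i4F Ink4a/Arf KO and -0.03372 against i4F, Trp73 -0.01509 against i4F, and Wrap53 in kidney against i4F Ink4a/Arf KO -0.02209, or -0.03843 with quantile normalization.

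Leaving out 1 library at a time gave these log2 ranges that crossed 0. In i4F p53 KO against i4F kidneys they were -0.2537 to 0.3039 for Cdkn1a, -0.01728 to 0.0631 for Trp63 and -0.01602 to 0.002416 for Trp73. In i4F Ink4a/Arf KO against i4F kidneys they were -0.07883 to 0.03733 for Trp53, -0.07237 to 0.02854 for Mdm2, -0.02017 to 0.2835 for Mdm4, -0.01616 to 0.0023 for Trp73 and -0.08215 to 0.07666 for the ratio of Mdm2 to Trp53. In i4F p53 KO against i4F Ink4a/Arf KO kidneys they were -0.05851 to 0.06497 for Wrap53 and -0.00597 to 0.007141 for Trp73. In i4F Ink4a/Arf KO against i4F pancreases they were -0.2404 to 0.1584 for Trp53, -0.2726 to 0.004925 for Mdm2, -0.04076 to 0.01352 for Trp63, -0.000875 to 0.008762 for Trp73 and -0.1951 to 0.04582 for the ratio of Mdm2 to Trp53. In the libraries labelled p53 KO against i4F pancreases they were -0.0946 to 0.01613 for scaled Mdm2, -0.005531 to 0.04875 for Trp63 and -0.001018 to 0.00732 for Trp73. Against i4F Ink4a/Arf KO pancreases they were -0.05812 to 0.04112 for scaled Mdm2, -0.03385 to 0.131 for scaled Mdm4, -0.005674 to 0.003963 for Trp73, -0.2365 to 0.06934 for the ratio of Mdm4 to Trp53 and -0.228 to 0.01707 for that of Mdm2 to Mdm4. The kidney ratio of Mdm2 to Trp53 kept its direction at 0.9614 to 1.164 against i4F and 0.9469 to 1.147 against i4F Ink4a/Arf KO, with 2 of 10 and 4 of 10 fits losing the call. Lower targets in kidney against i4F Ink4a/Arf KO numbered 2 to 8. Higher targets in scaled pancreas values numbered 2 to 9 against i4F and 2 to 7 against i4F Ink4a/Arf KO. The fits of scaled values that left out a library or used a pseudocount of 0.1 were chosen after seeing the data.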
